A study of Mus musculus with 6 samples.

Results

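Immediate early genes are genes whose transcripts appear within minutes of a stimulus, without new protein synthesis, and decay quickly. Growth factor signals reach them through the ERK kinase cascade, and stress signals through JNK and p38. Their products include the Fos and Jun proteins, which pair through leucine zippers to form the AP-1 transcription factor, and enzymes that shut the signal off. In pancreatic ductal adenocarcinoma, AP-1 factors are known as part of the transcriptional output of the tumour cells, and stromal and immune cells express the same genes.

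The genes described here are 10 immediate early genes fixed as a list by symbol, namely Fos, Fosb, Fosl1, Jun, Junb, Jund, Atf3, Egr1, Ier2 and Dusp1. Each symbol occurred once among the 55357 genes of the deposited table of TPM (a transcript abundance corrected for length and summing to 1 fixed total in each library). RNA came from 6 tumours that KPC1242 cells, derived from mouse pancreatic ductal adenocarcinoma, formed under the skin of C57BL/6J mice, with 250000 cells injected per mouse. The groups were 3 tumours of mice given 2 mg of folinic acid (FA), a reduced folate, by daily gavage from day 8 to day 12, and 3 tumours of mice given phosphate-buffered saline (PBS) on the same days, all harvested on day 14. All tumours derive from 1 cell line at a subcutaneous site, and the labels do not tie each tumour to its own mouse, so p-values measure the spread between these tumours, which may be technical. The descriptions of the FA tumours begin with 1 code and those of the PBS tumours with another, and what the code marks cannot be told apart from treatment.

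FA replicate 3 stood apart from the rest. Its correlation with the other tumours over the 15023 genes tested, which are not independent replicates, was 0.949 to 0.968, against 0.981 to 0.987 among the other 5, and it held the highest value of the 6 tumours for 29.4% of those genes and the lowest for 37.5%. Ductal epithelial markers were present in every tumour, with 7 markers summing to 4690 to 5400 TPM in FA and 4360 to 5000 TPM in PBS tumours. In whole-tumour RNA, fewer cells of a type and less RNA per cell cannot be told apart. The number of reads is unknown, since TPM keeps no depth, and no counting interval is given.

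Promoter windows are shown for Fos and Dusp1, whose rapid induction is well known, and for Jun and Junb, the pair whose FA and PBS values did not overlap. RefSeq entries of build GRCm38.p6 matched 7 of the 10 genes. Each window is the 250 bases before the annotated start, 5′ to 3′ on the gene's strand, and capitals mark every match, on either strand, to the motifs listed after the sequences.
Fos, chr12:85473640-85473889, plus strand: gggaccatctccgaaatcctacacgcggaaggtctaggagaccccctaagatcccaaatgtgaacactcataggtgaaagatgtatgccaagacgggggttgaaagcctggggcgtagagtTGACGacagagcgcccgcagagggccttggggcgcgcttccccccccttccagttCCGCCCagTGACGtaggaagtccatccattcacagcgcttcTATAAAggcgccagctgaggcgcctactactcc
Jun, chr4:95052223-95052472, minus strand: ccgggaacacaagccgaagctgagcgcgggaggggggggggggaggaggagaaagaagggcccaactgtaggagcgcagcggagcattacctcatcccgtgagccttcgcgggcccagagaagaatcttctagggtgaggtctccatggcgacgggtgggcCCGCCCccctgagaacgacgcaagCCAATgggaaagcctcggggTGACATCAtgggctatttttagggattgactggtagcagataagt
Junb, chr8:84978749-84978998, minus strand: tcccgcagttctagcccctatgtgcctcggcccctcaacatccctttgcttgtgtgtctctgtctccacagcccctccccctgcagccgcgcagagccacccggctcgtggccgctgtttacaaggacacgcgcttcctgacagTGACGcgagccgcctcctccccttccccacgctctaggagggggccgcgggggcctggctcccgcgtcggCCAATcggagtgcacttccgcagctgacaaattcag
Dusp1, chr17:26508473-26508722, minus strand: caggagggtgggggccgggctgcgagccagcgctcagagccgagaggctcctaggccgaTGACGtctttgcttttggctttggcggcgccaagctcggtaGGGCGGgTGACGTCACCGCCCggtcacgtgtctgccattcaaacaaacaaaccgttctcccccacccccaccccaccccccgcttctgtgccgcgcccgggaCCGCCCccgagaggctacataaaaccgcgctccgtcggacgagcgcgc

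The motifs were the cyclic AMP response element TGACGTCA, its first 5 letters TGACG, which also lie within it, the AP-1 site TGANTCA, the AP-1-like site TGACATCA, the boxes CCAAT and TATAAA, the GC box GGGCGG, the EGR site GCGNGGGCG and the CArG box, searched by its name's standard form. Dusp1 held the full TGACGTCA, 143 bases before its start, a motif found in 1.55% of all 32851 windows of this length. TGACG occurred in 5 of the 7 windows, those of Fos, Fosb, Junb, Atf3 and Dusp1, against 17.8% of all windows. In Fos it began 129 and 66 bases before the start, and TATAAA began at 33. Jun held TGACATCA, 45 bases before its start, found in 2.93% of windows, and CCAAT occurred in Jun and Junb, against 33.8% of windows. GGGCGG was in 5 of the 7 windows, against 32.7%, and the EGR site was in Fosb, against 4.7%. TGANTCA, in 6.75% of windows, and the CArG box, in 1.47%, matched none of the 7, which says only that these letters are not in these windows.

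The Fos family supplies AP-1 subunits that cannot pair with themselves and need a Jun partner. Fos itself, the founding member, had 30.8, 25.2 and 36.6 TPM in FA tumours, against 26.0, 29.1 and 33.8 TPM in PBS tumours. The FA tumours held both the highest and the lowest of the 6 values. The difference in log2(TPM + 1), FA minus PBS, was 0.05 ± 0.16 (standard error), with a 95% interval from -0.33 to 0.43 (limma, adjusted p = 1.0). Differences on this scale understate those of low genes. Fosl1, which encodes FRA-1, a Fos protein linked to invasive growth of carcinoma cells, had 26.6, 25.5 and 40.4 TPM in FA tumours and 30.1, 21.9 and 33.4 TPM in PBS tumours. FA replicate 3 was the highest and PBS replicate 2 the lowest, and the groups overlapped. Its log2 difference was 0.10 ± 0.22, with an interval from -0.42 to 0.63. Fosb, a further Fos subunit, was the scarcest of the 10 genes, at 2.79, 2.24 and 3.17 TPM in FA tumours and 2.94, 1.68 and 3.58 TPM in PBS tumours, with both extremes in the PBS group. Its difference was 0.03 ± 0.23, with an interval from -0.52 to 0.58.

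The Jun family showed the only members whose groups did not overlap, one in each direction. Jun, the classical AP-1 partner of Fos, had 32.4, 31.5 and 26.1 TPM in FA tumours, against 35.3, 35.3 and 39.0 TPM in PBS tumours. Every FA value was below every PBS value, and FA replicate 3 was the lowest. The log2 difference was -0.28 ± 0.10, with an interval from -0.53 to -0.03 and an unadjusted p of 0.0322 by limma, and it did not pass over all genes (adjusted p = 1.0). Junb, a Jun protein that can oppose or replace c-Jun depending on the promoter, had 179, 184 and 243 TPM in FA tumours, against 163, 166 and 177 TPM in PBS tumours. Here every FA value was above every PBS value, by a narrow margin between FA replicate 1 at 178.74 TPM and PBS replicate 3 at 177.04 TPM. The log2 difference was 0.24 ± 0.12, with an interval from -0.05 to 0.54 (limma, unadjusted p = 0.0895, adjusted p = 1.0). Jund, the Jun protein that is widely expressed without a stimulus, had 76.0, 74.7 and 67.4 TPM in FA tumours and 67.7, 75.9 and 81.6 TPM in PBS tumours. It was the steadiest of the 10 genes, with a highest value 1.21 times its lowest, and its difference was -0.04 ± 0.09, with an interval from -0.26 to 0.17.

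**Figure D1:**
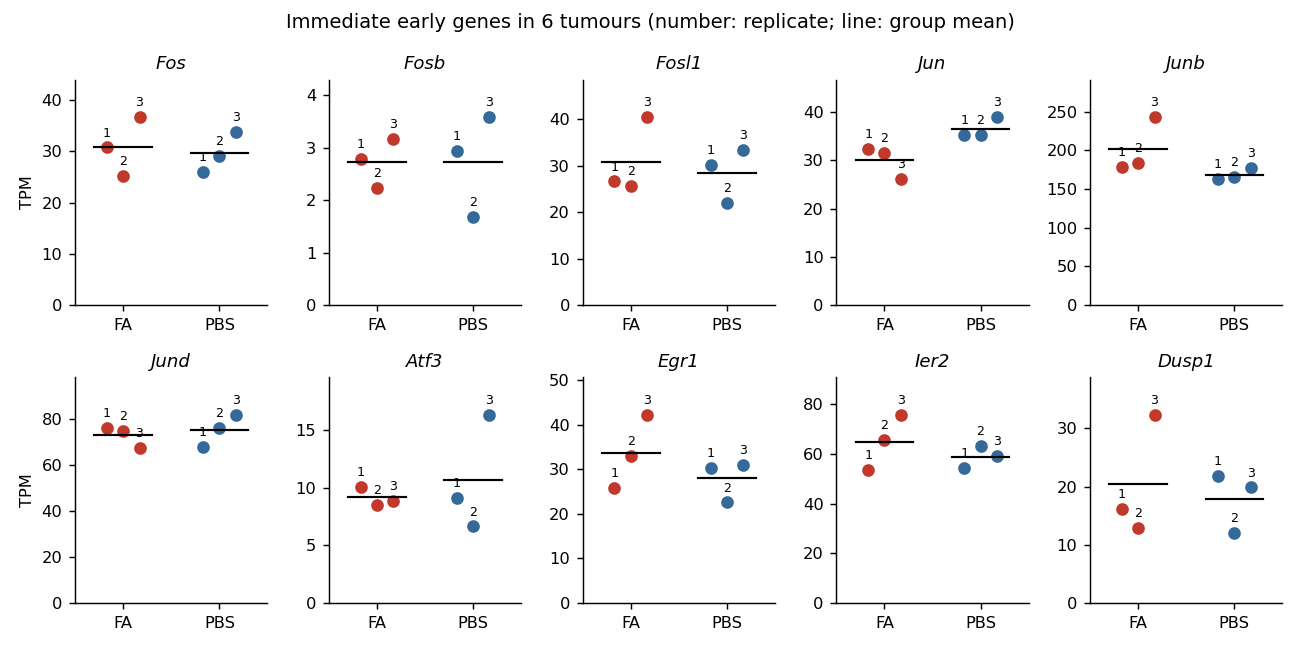
TPM of the 10 genes (vertical axes from 0, in TPM) in 3 FA tumours, left, and 3 PBS tumours, right, of each panel; numbers give the replicate and lines the group means. FA and PBS values separate for Jun, lower in FA, and for Junb, higher in FA, and overlap for the other 8 genes.

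Of the 10 genes, 2 had groups that did not overlap, against 4.69% of the 15023 genes tested, with 1 higher in FA against 2.48% and 1 lower against 2.22%. By limma, 0 of the 10 genes and 0 of all genes, or 0.0%, passed an adjusted p under 0.05. At an unadjusted p under 0.05, 1 of the 10 passed, Jun, against 1.28% of all genes, and by direction that was 0 higher, against 0.686%, and 1 lower, against 0.592%. Without PBS replicate 1, 2 or 3 in turn, 0 of the 10 passed, with Jun at unadjusted p of 0.0592, 0.0565 and 0.11 by limma. Without FA replicate 1, 2 of the 10 passed, Jun and Junb. Mean log2 values were higher in FA for 7 of the 10 genes, against 50.7% of all genes, and the median difference was 0.075 over the 10 genes and 0.002 over all genes.

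Within the Jun family, the share of each gene in the summed TPM differed between tumours. Junb made up 62.3%, 63.4% and 72.2% of Jun-family TPM in FA tumours, against 61.2%, 59.9% and 59.5% in PBS tumours. Jun made up 11.3%, 10.9% and 7.77% in FA tumours, against 13.3%, 12.7% and 13.1% in PBS tumours. The groups did not overlap for either share. The shares reuse the Jun and Junb values given above, whose groups separated in opposite directions, and are no further result. The summed TPM of the family was 287.1, 289.9 and 336.1 in FA tumours, against 265.7, 277.4 and 297.6 in PBS tumours. The ratio of Junb to Jun TPM, chosen after the values of both genes were seen, was 5.52, 5.83 and 9.29 in FA tumours, against 4.6, 4.70 and 4.55 in PBS tumours. The PBS ratios lay within a narrow band below all FA ratios, and FA replicate 3 was far above its group. Every FA tumour had more Junb and less Jun than every PBS tumour, so the ratios could not overlap.

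**Figure D2:**
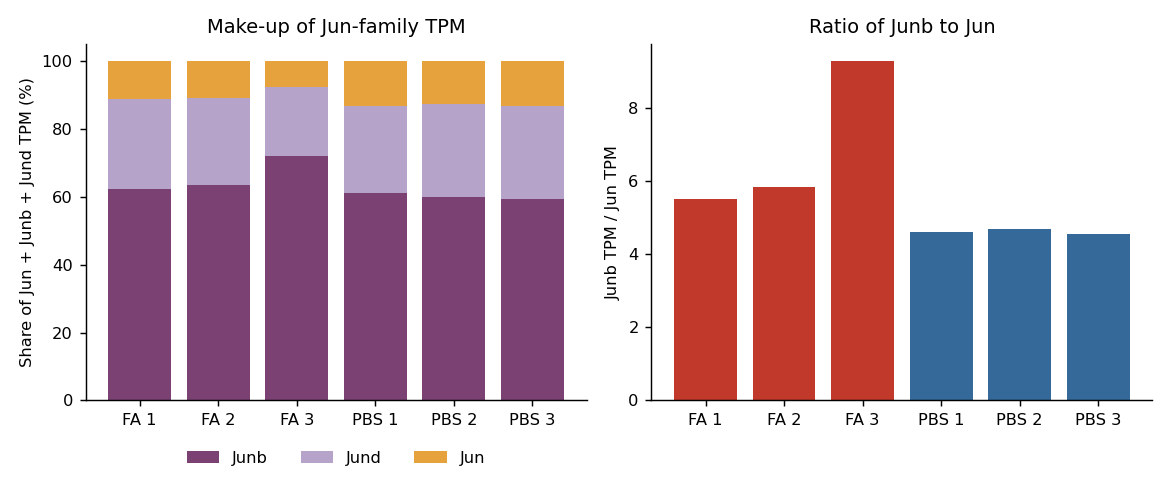
Left, share of Jun, Jund and Junb in their summed TPM (percent) in each tumour. Right, the ratio of Junb to Jun TPM in the same 6 tumours, which is 9.29 in FA replicate 3, 5.52 and 5.83 in the other FA tumours and 4.55 to 4.70 in PBS tumours.

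Atf3, a stress-induced bZIP protein that can pair with Jun proteins, had 10.1, 8.53 and 8.86 TPM in FA tumours, against 9.13, 6.63 and 16.3 TPM in PBS tumours. The FA tumours lay within the PBS range, whose upper end was set by PBS replicate 3. The log2 difference was -0.12 ± 0.29, with an interval from -0.81 to 0.56, and without PBS replicate 3 it was 0.20. The mean log2(TPM + 1) of 11 heat shock genes was 6.79, 6.86 and 6.73 in FA tumours, against 6.90, 6.56 and 7.13 in PBS tumours. PBS replicates 2 and 3 were again the lowest and the highest. PBS replicate 3 was the highest for 6 of the 11 genes, against 8.43% of all genes. PBS replicate 2 was the lowest for 6 of the 11, against 17.4% of all genes, and 3 of the 11 had both. PBS replicate 2 also had the lowest mean log2(TPM + 1) of the 10 immediate early genes. The part of a stress response in the Atf3 values was not tested.

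The remaining 3 genes act beside AP-1. Egr1, a zinc finger transcription factor induced through ERK and serum response factor, had 25.9, 33.0 and 42.1 TPM in FA tumours and 30.3, 22.5 and 30.9 TPM in PBS tumours. FA replicates 2 and 3 were above all PBS tumours, while FA replicate 1 lay among them. The log2 difference was 0.25 ± 0.20, with an interval from -0.23 to 0.73. Ier2, a small nuclear protein induced by growth factors, had 53.7, 65.6 and 75.7 TPM in FA tumours and 54.4, 63.1 and 59.3 TPM in PBS tumours. The 3 FA tumours spanned the whole PBS range, and the difference was 0.13 ± 0.13, with an interval from -0.19 to 0.44. Dusp1, a phosphatase that switches off p38, JNK and ERK, had 16.2, 12.9 and 32.3 TPM in FA tumours and 21.8, 12.1 and 19.8 TPM in PBS tumours. It varied most of the 10 genes, with a highest value 2.67 times its lowest, and FA replicate 3 alone was above the PBS range. Its log2 difference was 0.12 ± 0.36, with an interval from -0.74 to 0.98.

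**Figure D3:**
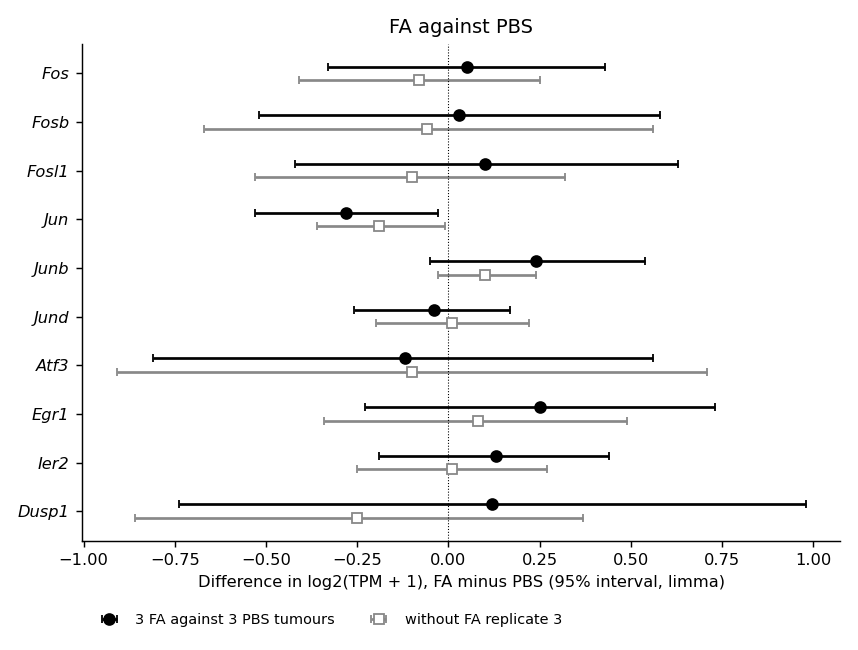
Difference in log2(TPM + 1), FA minus PBS, with its 95% interval from limma for each gene, with all 6 tumours (filled circles) and without FA replicate 3 (open squares). The interval lies below 0 for Jun in both fits and includes 0 for the other 9 genes.

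Leaving out FA replicate 3 changed the sign of 5 differences. Fos was then at -0.08, Fosb at -0.06, Fosl1 at -0.10, Dusp1 at -0.25 and Jund at 0.01, while Egr1 and Ier2 moved to 0.08 and 0.01. Jun stayed lower, at -0.19 ± 0.07 (limma, unadjusted p = 0.0411, adjusted p = 1.0), and Junb stayed higher, at 0.10 ± 0.06 (unadjusted p = 0.113). The count of genes with a higher mean in FA was then 4 of 10, against 8307 of all 15023 genes. The median over the 10 genes was -0.068 in this fit, against 0.013 over all genes. Without PBS replicate 2 the count was also 4, and Fosb, Fosl1 and Dusp1 were at -0.19, -0.07 and -0.13. Array weights, which gave FA replicate 3 a weight of 0.217 and the other tumours 1.03 to 2.23, left 3 genes higher.

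A few tumours held most of the extreme values, in both groups. FA replicate 3 was the highest of the 6 for 6 genes, Fos, Fosl1, Junb, Egr1, Ier2 and Dusp1, against 29.4% of all genes. It was the lowest for 2, Jun and Jund, against 37.5% of all genes. PBS replicate 3 was the highest for the other 4, Fosb, Jun, Jund and Atf3, against 8.43% of all genes. PBS replicate 2 was the lowest for 5, Fosb, Fosl1, Atf3, Egr1 and Dusp1, against 17.4% of all genes. FA replicates 1 and 2 and PBS replicates 1 and 2 were never the highest, against 18.9%, 14.2%, 14.0% and 15.0% of all genes. The mean of the 10 standardized log2 levels was -0.19, -0.30 and 0.71 in FA tumours, against -0.25, -0.64 and 0.68 in PBS tumours. Each group held 1 tumour with a high value.

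**Figure D4:**
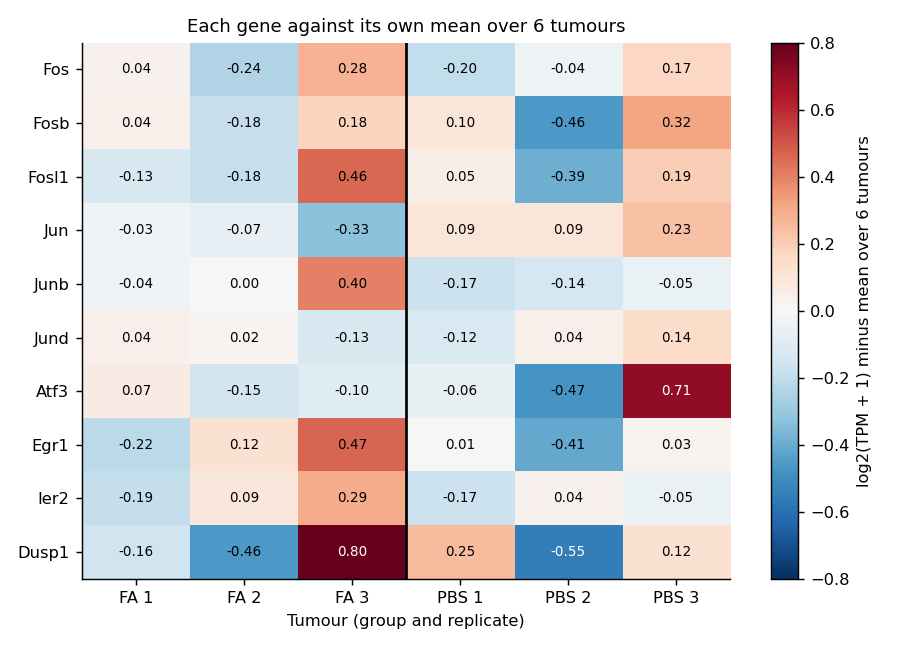
Level of each gene in each tumour as log2(TPM + 1) minus the gene's mean over the 6 tumours (colour scale and printed values), FA tumours left of the line and PBS tumours right. FA replicate 3 reaches 0.80 for Dusp1 and 0.47 for Egr1 but -0.33 for Jun, PBS replicate 3 reaches 0.71 for Atf3, and PBS replicate 2 is lowest for 5 genes.

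Set against genes of a like level, meaning a mean TPM between 0.5 and 2 times their own, 8 of the 10 genes had a larger within-group spread than most. The within-group SD of log2(TPM + 1) was 0.55 for Dusp1, larger than in 96.2% of its 5318 comparison genes. For Fosl1, Egr1 and Atf3 it was 0.33, 0.30 and 0.43, larger than in 91.8%, 89.9% and 89.0%. Fos, Junb and Ier2 were at 80.5%, 77.0% and 76.8% on the same measure, and Fosb at 62.5%. Jun and Jund were near the middle, at 48.2% and 47.5%, with SDs of 0.13 and 0.11. The spread of some genes came mostly from 1 group. For Junb, highest in FA replicate 3, the SD of TPM was 35.5 in FA and 7.52 in PBS tumours. For Atf3, highest in PBS replicate 3, it was 0.811 in FA and 5.02 in PBS tumours.

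By TPM, which is scaled by length, Junb was the most abundant of the 10 in every tumour, at 163 to 243 TPM. Jund, at 67.4 to 81.6 TPM, and Ier2, at 53.7 to 75.7 TPM, came next and overlapped. Jun, Egr1, Fos and Fosl1 averaged 33.3, 30.8, 30.2 and 29.7 TPM over the 6 tumours, and their ranges overlapped throughout. Dusp1 averaged 19.2 TPM and Atf3 9.92 TPM. Atf3 was below Dusp1 in each tumour, although their ranges overlapped, and Fosb was the lowest in every tumour. Fosl2, a Fos-family gene outside the list, was at 26.9, 22.4 and 28.2 TPM in FA tumours and 28.0, 24.0 and 24.7 TPM in PBS tumours, and Fos, Fosl1 and Fosl2 each made up 25.8% to 38.0% of the 4 Fos-family genes' TPM.

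In the GENCODE M21 annotation, Jun, Junb, Jund and Ier2 have 1 exon, and several of the 10 overlap a gene on the other strand. Junos, an antisense RNA gene at the Jun start, had 1.73, 1.23 and 2.60 TPM in FA tumours and 1.71, 1.93 and 1.79 TPM in PBS tumours. Its levels overlapped between groups and were 10.0 to 25.6 times lower than those of Jun. Prdx2, an antioxidant enzyme gene whose end meets that of Junb, had 607, 624 and 569 TPM in FA tumours and 626, 660 and 654 TPM in PBS tumours, lower in every FA tumour, while Junb was higher. Jund overlaps the antisense gene Gm11175, listed between 0.00 and 3.40 TPM, and Fosl1 overlaps Ccdc85b, at 8.44 to 11.1 TPM. Dusp1 overlaps Ergic1 and the pseudogene Gm8225 on the other strand, and Atf3 overlaps Gm24748, with levels not reported here. The libraries were stranded, but whether strand was kept in the processing is not stated in the labels, so values of genes with a partner on the other strand are uncertain to that extent.

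Genes whose levels ran most like those of Fos over the 6 tumours, among 10648 genes of at least 5 TPM on average, were Def6, Ss18l2, Snx3, Got1, Wrnip1 and Osbpl5, with Pearson r from 0.95 to 0.979. Def6 had 7.47, 6.90 and 8.37 TPM in FA tumours and 6.90, 7.54 and 7.84 TPM in PBS tumours, and without FA replicate 3 its r was 0.965. For the mean of the 10 standardized levels, the nearest genes were D16Ertd472e, Numbl, Usp36, Gnl1, Pmepa1 and Slc66a1, with r from 0.958 to 0.981. These r are descriptions over 6 tumours that share their libraries, and with so many genes ranked high values are to be had in any case. None of the 35 other immediate early genes described next was among the 12. Some of them, such as Egr3 and Arc, averaged under 5 TPM and were not ranked. With 12 places among 10648 genes, the absence says nothing on whether they vary together.

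Other immediate early genes, a list of 35 fixed by symbol, did not move in 1 direction. Above the filter of 1 TPM on average were 33. FA tumours had the higher mean for 13 and the lower for 20, against 50.7% of all genes higher. The median log2 difference was -0.024, against 0.002 over all genes. By limma none passed over all genes, and at an unadjusted p under 0.05 the list had 0 higher and 2 lower genes, against 0.686% and 0.592% of all genes. The 2 were Per1, a clock repressor, at 9.31, 7.94 and 6.97 TPM in FA tumours against 10.6, 10.3 and 9.72 TPM in PBS tumours, and Sik1, a cyclic AMP-induced kinase, at 9.57, 8.02 and 9.10 TPM against 10.99, 11.2 and 10.4 TPM. All FA values were below all PBS values for both, with log2 differences of -0.31 ± 0.12 and -0.26 ± 0.10. Myc, the proto-oncogene transcription factor, ran the other way, at 117, 124 and 159 TPM in FA tumours against 115, 98.5 and 110 TPM in PBS tumours, and differed by 0.29 ± 0.13 (limma, unadjusted p = 0.0577, adjusted p = 1.0). Without FA replicate 3 the Myc difference was 0.16. Btg1, an antiproliferative gene, was at 163 ± 14.5 TPM over the FA tumours and 178 ± 3.46 TPM over the PBS tumours (SD over 3 tumours).

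FA replicate 3 was the highest tumour for 18 of the 33, against 29.4% of all genes. Ier3 was at 188 TPM in it and 86.0 and 63.3 TPM in the other FA tumours, against 102 to 106 TPM in PBS tumours. Ccn1, which encodes a growth factor-induced matricellular protein, reached 220 TPM in FA replicate 3 and 109 and 113 TPM in the other FA tumours, against 91.4 to 149 TPM in PBS tumours. Without that tumour 6 of the 33 genes had a higher mean in FA, against 8307 of all 15023 genes, and the median was -0.106. Egr4 and Nr4a3 were under the filter.

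The kinase and factor genes upstream of the class had log2 differences from -0.07 to 0.24. Of 21 genes, the FA mean was higher for 13 and lower for 8, against 50.7% of all genes higher. The median was 0.019, with 0 past either limma threshold. Srf, which encodes serum response factor, stood at 23.5, 26.7 and 38.0 TPM in FA tumours and 24.7, 21.6 and 26.8 TPM in PBS tumours, with FA replicate 3 above the rest. The Srf difference in log2 was 0.24 ± 0.18, and 0.05 without that tumour. Mrtfb, which encodes a coactivator of serum response factor, was at 13.6 ± 0.941 TPM over the FA tumours and 12.8 ± 0.457 TPM over the PBS tumours (SD over 3 tumours).

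Among 18 ERK feedback and output genes, 7 had a higher and 11 a lower mean in FA, against 50.7% of all genes higher. Their median was -0.038, with 0 past either limma threshold. Dusp6, which encodes an ERK-selective phosphatase, stood at 134, 139 and 167 TPM in FA tumours, against 117, 119 and 134 TPM in PBS tumours. Its groups were barely separated, with FA replicate 1 at 133.77 TPM and PBS replicate 3 at 133.71 TPM, and the log2 difference was 0.24 ± 0.10 (limma, unadjusted p = 0.0524, adjusted p = 1.0). Spry4, a feedback inhibitor of receptor signalling, differed by 0.16 ± 0.11, Dusp4 by -0.16 ± 0.12 and Dusp2 by 0.37 ± 0.28. Dusp2 averaged only 1.85 TPM, and with 0.1 in place of 1 added to TPM its difference was 0.51. Without FA replicate 3, Dusp6 differed by 0.15, Spry4 by 0.07, Dusp4 by -0.07 and Dusp2 by 0.06, and without FA replicate 1 Dusp2 differed by 0.60 and Dusp4 by -0.28. Of the other bZIP partner genes, 8 of 12 had a higher mean, against 50.7% of all genes, with a median of 0.042. Batf2, an interferon-induced factor at 1.03, 1.49 and 1.60 TPM in FA tumours and 0.99, 0.92 and 0.46 TPM in PBS tumours, was their gene with the smallest p (limma, unadjusted p = 0.0811, adjusted p = 1.0). Maff, Mafg and Atf7 differed by -0.11 ± 0.09, 0.07 ± 0.07 and -0.08 ± 0.10.

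Genes often named as AP-1 targets were mostly highest in FA replicate 3. Of 20 above the filter, the FA mean was the higher for 17, against 50.7% of all genes, with a median of 0.12. FA replicate 3 was the highest tumour for 17, against 29.4% of all genes. By limma 0 passed, also at an unadjusted p under 0.05. Mmp9, which encodes a matrix protease, stood at 9.47, 30.6 and 49.8 TPM in FA tumours and 19.8, 10.5 and 21.8 TPM in PBS tumours. Plaur, which encodes the urokinase receptor, stood at 106, 112 and 191 TPM in FA tumours and 107, 104 and 120 TPM in PBS tumours, and Areg, an EGF receptor ligand gene, at 16.9, 19.9 and 33.3 TPM against 18.4, 15.9 and 22.7 TPM. In both, 1 FA tumour was high and the other 2 lay within the PBS range. Tgfa, another ligand gene, differed by 0.10 ± 0.09. Without FA replicate 3, 2 of the 20 had a higher mean in FA, against 8307 of all 15023 genes, and the median was -0.149.

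**Figure D5:**
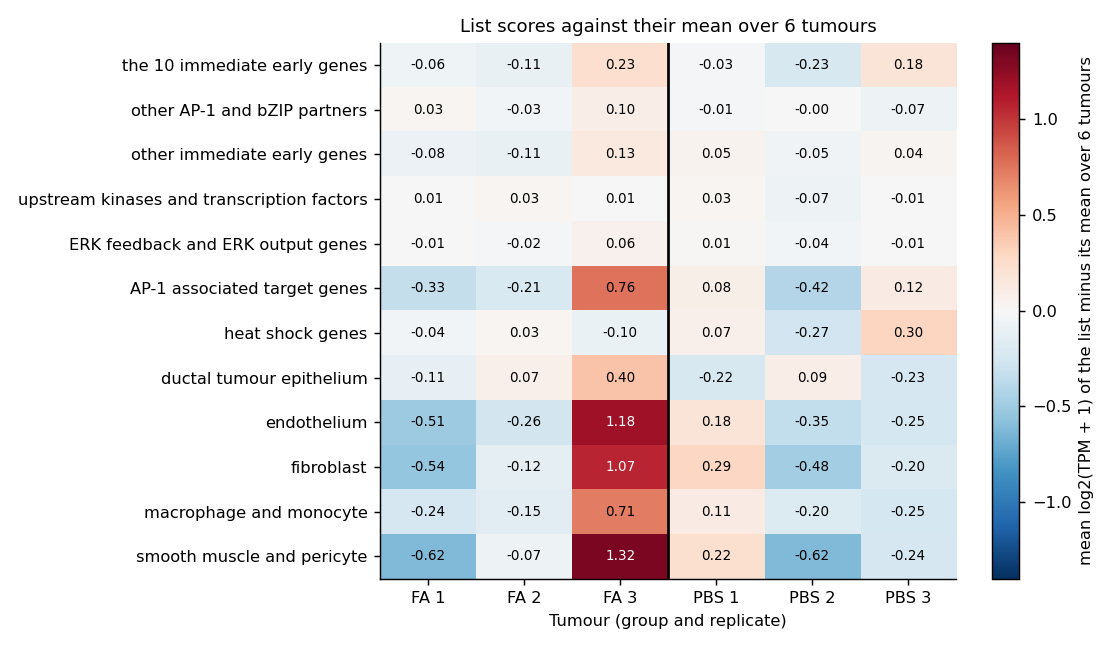
Mean log2(TPM + 1) of each list in each tumour minus the list's mean over the 6 tumours, for the 10 immediate early genes, 6 pathway lists and 5 marker lists, FA tumours left of the line. In FA replicate 3 the 10 genes are at 0.23, AP-1 target genes at 0.76, ductal epithelial markers at 0.40, fibroblast markers at 1.07 and endothelial markers at 1.18.

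Markers of other cell types moved with FA replicate 3. The mean log2(TPM + 1) of the 7 ductal epithelial markers was also highest in it, with 4 of the 7 highest there. They did not all move alike. Sox9, at 33.9 TPM against 42.2 to 51.0 TPM in the other tumours, was lowest in FA replicate 3. All 7 fibroblast, all 7 endothelial and all 7 macrophage and monocyte markers were highest in it, and the summed levels ranged from 1900 to 6520 TPM in FA and 1830 to 3530 TPM in PBS tumours for fibroblasts, 90.8 to 319 and 96.0 to 148 TPM for endothelium, and 863 to 1790 and 888 to 1120 TPM for macrophages and monocytes. For smooth muscle and pericytes, 5 of 6 markers were highest in it, and sums ran from 101 to 362 TPM in FA and 74.5 to 155 TPM in PBS tumours. Skeletal muscle markers summed to 12.7 to 1100 TPM in FA and 14.5 to 160 TPM in PBS tumours, with Acta1, Ckm and Myh4 listed at 0 in at least 1 tumour. Adipocyte markers summed to 12.4 to 194 TPM in FA and 25.4 to 61.5 TPM in PBS tumours, with Plin1 and Lep listed at 0 in at least 1 tumour. Neutrophil markers, with Ly6g listed at 0 in at least 1 tumour, summed to 16.1 to 40.3 TPM in FA and 16.3 to 17.5 TPM in PBS tumours, and T cell markers, with Cd3d and Cd8a listed at 0 in at least 1 tumour, to 3.05 to 6.23 and 2.66 to 3.78 TPM. The part of these cells in the levels of the 10 genes was not tested, and the values without FA replicate 3 are those given above.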

How the data were processed

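The authors deposited 1 table of TPM for 6 tumours, all columns summing to the same total. FastQC, STAR, featureCounts and RSEM were used, per the submitters' processing notes, which give no versions. Genome build and annotation: not given in the sources used here. Per the labels' protocols, libraries were stranded total RNA, from RNA with an integrity number above 8. Each column name equals the description of 1 sample, which assigned it. TPM is not a count, so limma 3.58.1 in R 4.3.3 was fitted to log2(TPM + 1) for 15023 genes, those averaging 1 TPM or more over the 6 tumours, FA against PBS with no covariate, an empirical Bayes trend, and two-sided p-values adjusted by the Benjamini-Hochberg method over all of them. The fit was also run on simulated data with independent noise for each gene and no outlying tumour. That setting differs from these tumours, so it says little on their results. Depth cannot be had from TPM.

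The 10 genes, the 6 pathway lists, the marker lists and the tests were chosen with earlier results of these data known, and lists are described by counts and medians only. Named list genes are the up to 4 of smallest unadjusted p in each pathway list. Some genes so chosen are not reported here. Others named from these lists (Ier3, Ccn1, Fosl2), the overlapping genes and the Junb to Jun ratio were chosen after their values were seen. Likeness was ranked by Pearson r over the 6 tumours, predicted gene models left out. Alternatives were other pseudocounts (0.5, 0.1), filters, scalings, weights, a replicate block and leaving out each tumour.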

Additional observations from a re-analysis of the deposited data

How the results depend on the processing

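None of the 10 genes, nor any of the list genes named for their small p, passed an adjusted p of 0.05 in any alternative, and Jun, Junb, Egr1 and Ier2 kept their direction in all 16. Over all genes, limma again called 0 higher and 0 lower, also at an adjusted p under 0.1, except for 2 higher without the filter and 1 lower without FA replicate 3. With 1 tumour left out the lower genes numbered 0 to 1 and the higher 0. Whether the replicate numbers pair the tumours cannot be told. Correlations of same-numbered deviations were -0.208, 0.0533 and -0.0221, and differently numbered ones ran from -0.192 to 0.245. So few tumours, 1 of them apart from the rest, cannot decide it. The replicate block left 0 genes higher and 0 lower. With the block the 1 of the 10 genes under an unadjusted p of 0.05 was Junb (limma, unadjusted p = 0.0471) and no longer Jun, which stayed at -0.28 (unadjusted p = 0.0714). With 1 tumour left out, 0 to 2 of the 10 were under it.

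Array weights left 3 of the 10 genes higher, and turned Fos (-0.08), Fosb (-0.13), Fosl1 (-0.12), Dusp1 (-0.23) and Areg (-0.01) below 0, and quantile normalization Fosb (-0.0055). With array weights the ERK feedback median was 0.008. Leaving out 1 tumour gave 4 to 9 of the 10 genes higher and ranges of -0.08 to 0.18 for Fos, -0.19 to 0.19 for Fosb, -0.10 to 0.22 for Fosl1, -0.12 to 0.02 for Jund, -0.39 to 0.20 for Atf3, -0.25 to 0.38 for Dusp1, -0.34 to -0.19 for Jun, 0.10 to 0.32 for Junb, -0.02 to 0.40 for Plaur, -0.03 to 0.43 for Areg and -0.89 to 0.00342 for Hspa1a. Medians ranged from -0.068 to 0.199 for the 10 genes, -0.149 to 0.298 for AP-1 targets, -0.106 to 0.016 for other immediate early genes, -0.056 to 0.055 for heat shock genes, -0.006 to 0.1 for bZIP partners, 0.017 to 0.053 for upstream genes and -0.025 to 0.016 for ERK feedback. The cause was not tested. The median of all genes stayed between -0.0108 and 0.0166, and what depth limits cannot be told from TPM.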

Other observations

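Heat shock genes, a list of 11, had a higher mean in FA tumours for 5 and a lower mean for 6. Over all genes 50.7% were higher. The median log2 difference was -0.038, with 0 genes past an adjusted p of 0.05 by limma, also at an unadjusted p under 0.05. Hsp90aa1, which encodes a stress-inducible chaperone, stood at 822, 822 and 898 TPM in FA tumours and 786, 665 and 857 TPM in PBS tumours. Hspa8, the constitutive HSP70 gene, differed by 0.08 ± 0.08 and Dnaja1, a co-chaperone gene, by -0.12 ± 0.10. Hspa1a, which encodes an inducible HSP70, stood at 5.22, 4.28 and 3.79 TPM in FA tumours and 6.86, 2.69 and 11.7 TPM in PBS tumours. It shares nearly identical sequence with Hspa1b, so its values are uncertain.

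Of the 11 genes, 3 had their highest value in PBS replicate 3 and their lowest in PBS replicate 2, as Atf3 and Fosb did, a pattern looked for after the values were seen. They were Hspa1a, Hsph1 and Hspb1. The other 8 did not have both. Of the 11, the highest value was in PBS replicate 3 for 6, against 8.43% of all genes. It was in FA replicate 3 for 4, against 29.4%, and in FA replicate 2 for 1, against 14.2%. The lowest value was in PBS replicate 2 for 6 of the 11, against 17.4% of all genes. Hspb1, which encodes a small heat shock protein, stood at 39.3, 63.0 and 56.1 TPM in FA tumours and 59.6, 36.5 and 83.2 TPM in PBS tumours. Nr4a2, which encodes a nuclear receptor of the immediate early class and was also chosen after its values were seen, stood at 6.95, 7.12 and 3.42 TPM in FA tumours and 7.33, 7.34 and 7.20 TPM in PBS tumours. Its groups did not overlap, but FA replicate 3 alone was far below the PBS tumours, and the log2 difference without it was -0.05.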
